A study of Mus musculus with 68 samples.

Results

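The response of WSB mouse embryonic fibroblasts (MEFs) to tunicamycin (TM) was measured in 5 of the 68 RNA-seq libraries of a study of endoplasmic reticulum (ER) stress across mouse strains. These were WSB control replicates 2 and 3 and WSB TM replicates 1 to 3, and every gene in the WSB table was considered. The table lists 13197 genes, of which 12668 reached a value of 0.5 in 2 or more of the 5 libraries and were tested.

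WSB (WSB/EiJ) is a wild-derived inbred strain. Its primary MEFs were treated for 4 h with 2 ug/ml TM in DMSO, and the control MEFs for the same time with 0.1% DMSO alone. The cells of a strain were pooled from several female embryos of 1 litter, so WSB is represented by 1 litter. Cells were plated in wells and each condition was treated in triplicate, per the study's methods, so the replicates share 1 pool of cells and the p-values measure the spread between treated samples, which may be technical, not between animals or litters. The other 7 founder strains (129, A/J, B6, CAST, NOD, NZO and PWK, 35 libraries) were used only for comparison. So was the F1 of a B6 mother and a WSB father (xWSB, 3 control and 3 TM libraries). Dose and time were the same.

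TM blocks the first step of N-linked glycosylation, so that glycoproteins misfold in the ER lumen. The unfolded protein response (UPR) that follows is carried by the sensors ATF6, IRE1 and PERK. ATF6 and IRE1-spliced XBP1 raise chaperones and ER-associated degradation, PERK slows translation and raises ATF4 and CHOP, and IRE1 also cleaves some mRNAs at the ER membrane, a process known as Ire1-dependent decay. Much of the cargo of a fibroblast ER is extracellular matrix, receptors and adhesion proteins.

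Values are reads per gene scaled to the library size, here called scaled reads. They were not divided by transcript length, so levels are compared between libraries and not between genes. The WSB controls held 8197697 and 7091923 reads on genes, and the TM libraries 10185826, 8209721 and 11565681. The fibroblast label was checked first. All 9 fibroblast markers were detected, with Col1a1 at 9759 to 10638 scaled reads in the controls and 5354 to 9849 with TM, and Vim at 8724 to 10057 in the 5 libraries. In bulk RNA, fewer cells of a type and less RNA per cell cannot be told apart. Control 2 stood apart in many, though not all, markers of other cell types. The myeloid markers summed to 27.9 scaled reads in control 2, 7.65 in control 3 and 5.73 to 6.85 with TM. The endothelial markers summed to 19.9 in control 2, 3.24 in control 3 and 3.12 to 3.74 with TM, and the epithelial markers to 103, 36.9 and 45.03 to 55.3. The macrophage gene Lyz2 was at 15.1 in control 2 and at 1.18 or less in the other 4 libraries, the keratin Krt8 at 23.9 against 0.70 or less, and the endothelial cadherin Cdh5 at 8.44 against 0.29 or less. The myeloid markers Ptprc and Cd68 went the other way, at 0.74 and 3.23 in control 2 against 1.03 and 3.53 in control 3. Among fibroblast markers, Dcn (52.6 against 15.1) and Lum (7.32 against 2.94) were also higher in control 2. Of all genes tested, 691 were at least 2-fold higher in control 2 than in control 3 and 152 at least 2-fold lower. Of the markers tested, 0 passed in either direction. Cdh5, Pecam1, Cdh1, Tyrobp and Adgre1 did not reach the filter and were not tested. All of these but Adgre1 reached 0.5 in control 2 alone. The part of control 2 in the results was not tested beyond leaving it out.

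**Figure D1:**
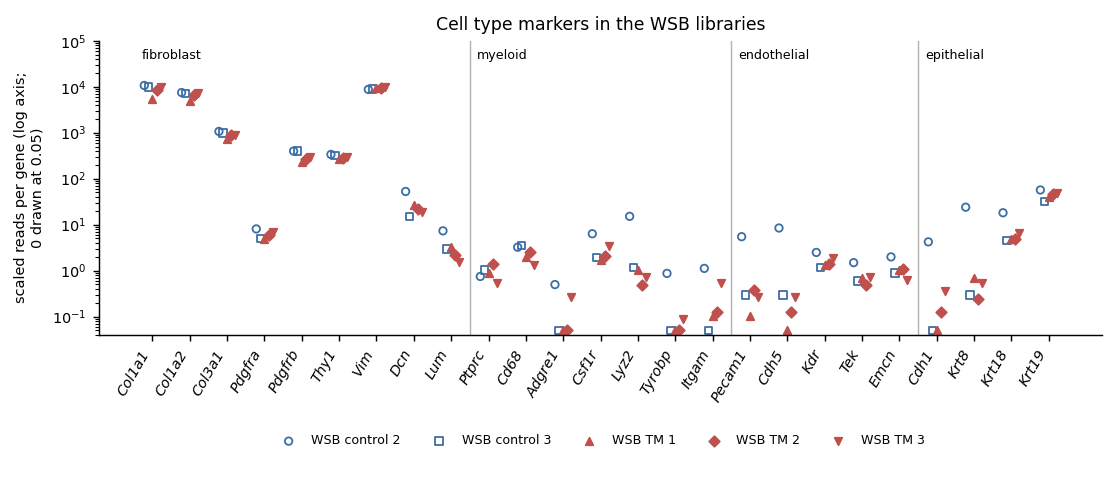
Scaled reads per gene (log axis, 0 drawn at 0.05) of fibroblast, myeloid, endothelial and epithelial markers in each of the 5 WSB libraries. Open blue symbols are controls and filled red symbols TM; control 2 lies above the other libraries for Lyz2 (15.1), Cdh5 (8.44) and Krt8 (23.9).

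The treatment was visible in the UPR genes of every TM library. Hspa5, the ER chaperone BiP, was at 897 and 998 scaled reads in the controls and at 7743, 7044 and 8092 with TM. Herpud1, a membrane component of ER-associated degradation, was at 62.9 and 64.9 in the controls and at 1560, 1531 and 1373 with TM. Ddit3, which encodes CHOP, was at 48.4 and 44.0 against 784, 849 and 1044. The log2 changes were 3.01 (SE 0.13), 4.54 (SE 0.13) and 4.26 (SE 0.16), and the groups did not overlap for any of these genes. Xbp1 rose by 1.22 and Atf4 by 1.50 on the log2 scale (adjusted p from limma 0.00067 and 0.00012).

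To see which promoters hold known UPR elements, the window from 250 bases before to 50 bases after each RefSeq start site was searched on both strands for the ER stress response elements ERSE (CCAAT and CCACG with any 9 bases between them) and ERSE-II (ATTGG and CCACG with any 1 base between them), and for the C/EBP-ATF response element CARE (TTGCATCA). Of the genes tested, 9864 had such a window. The promoters of 3 of the most induced genes are shown, from RefSeq on build GRCm38.p6, 5′ to 3′ along the gene, with the matches in capitals. Those of Hspa5 (chr2:34771840-34772139, plus strand) and Derl3 (chr10:75893148-75893447, plus strand) hold an ERSE, in Derl3 on the opposite strand. That of Herpud1 (chr8:94386179-94386478, plus strand) holds a CARE and an ERSE-II.
Hspa5: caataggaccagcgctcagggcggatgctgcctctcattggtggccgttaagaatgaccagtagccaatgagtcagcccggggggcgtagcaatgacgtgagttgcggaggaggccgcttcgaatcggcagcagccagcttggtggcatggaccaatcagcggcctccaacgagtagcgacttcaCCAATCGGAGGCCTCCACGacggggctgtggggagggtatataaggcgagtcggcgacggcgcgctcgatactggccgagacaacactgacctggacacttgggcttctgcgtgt
Derl3: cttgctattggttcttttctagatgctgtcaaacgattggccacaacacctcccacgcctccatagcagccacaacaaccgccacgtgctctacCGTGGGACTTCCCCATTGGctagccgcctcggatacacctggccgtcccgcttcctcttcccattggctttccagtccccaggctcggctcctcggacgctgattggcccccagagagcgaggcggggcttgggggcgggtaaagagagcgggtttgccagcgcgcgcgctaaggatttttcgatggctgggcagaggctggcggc
Herpud1: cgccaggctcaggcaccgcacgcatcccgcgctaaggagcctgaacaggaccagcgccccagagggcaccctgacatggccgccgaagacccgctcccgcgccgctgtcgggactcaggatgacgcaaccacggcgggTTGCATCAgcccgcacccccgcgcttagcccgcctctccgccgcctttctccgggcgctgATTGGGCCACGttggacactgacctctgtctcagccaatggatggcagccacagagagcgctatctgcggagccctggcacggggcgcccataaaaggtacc

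The exact ERSE was in 17 of the 9864 windows (0.172%) and in 9 of the 286 windows of genes called induced below (3.15%), among them Hspa5, Derl3, Creld2, Syvn1, Hsp90b1, Dnajc3, Pdia6 and Calr. CARE was in 0.71% of the windows and in 14 of those of induced genes (4.9%), among them Chac1, Atf3 and Herpud1. ERSE-II was in 0.0811% of the windows and in 4 of those of induced genes (1.4%). Of the 400 windows of genes called lowered, 0 held an ERSE or an ERSE-II, and 2 held a CARE (0.5%), those of Ank2 and Dock9. These counts among lowered genes are near the shares over all windows and show no difference from them. A match describes these letters in this window only.

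A gene was called where limma on log2(scaled reads + 0.1) gave 1.5 fold or more with a p under 0.01 after Benjamini-Hochberg adjustment. By this rule 532 genes were lowered, 4.2% of those tested, and 361 were induced, 2.85%. Lowered genes did not outnumber induced ones in every fit: the counts were 276 and 624 after correction for transcript length and GC, 109 and 267 after correction for length alone, 598 and 688 in 1 fit over the 40 founder libraries, and 0 and 21 without a trend in the prior variance. A lowered gene typically fell about as far as an induced gene rose: the median change was 2.21-fold among lowered and 2.09-fold among induced genes. A change of at least 4-fold was found in 22 lowered and 45 induced genes. The lowered genes were well expressed, with a median of 71.5 scaled reads in the controls and 34.1 with TM, and 520 of them had a mean of at least 5 over the 5 libraries. The TM libraries lay outside the range of the controls for all 532 lowered and all 361 induced genes, as they did for 3202 tested genes on the lower and 3258 on the higher side. The study kept only libraries that grouped with their own treatment in a principal components analysis, so the spread within a group is that of the libraries kept.

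The number of genes called depended on each library and on how the spread was estimated. Without control 2 the same test called 105 genes lowered and 103 induced, without control 3 it called 306 and 193, without TM 1 it called 255 and 159, without TM 2 it called 208 and 105, and without TM 3 it called 694 and 560. With 1 control left, that control was assumed to vary like the other libraries. With a prior variance that did not follow the expression level, 0 genes passed as lowered and 21 as induced in limma, although 1621 and 1216 genes passed 1.5 fold with an unadjusted p below 0.05. The quasi-likelihood test in edgeR on the reads recovered from the values called 586 lowered and 309 induced genes, 528 and 309 of them shared with limma.

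The 20 most lowered genes were taken among those with a mean of at least 5 scaled reads and groups that did not overlap. They fell by 1.98 or more on the log2 scale. Hspg2, the basement membrane proteoglycan perlecan (chromosome 4, 137468769 to 137570630, build GRCm38), went from 3604 and 3261 scaled reads in the controls to 428, 692 and 823 with TM, 5.49-fold lower (adjusted p 0.00026). Pkd1, the polycystin receptor mutated in polycystic kidney disease (chromosome 17, 24549834 to 24596508), went from 555 and 559 to 86.9, 125 and 122. In both genes the highest TM library lay below the lower control by a wide margin.

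Several of the 20 are regulators. Hipk2, a nuclear serine kinase, was at 98.5 and 87.9 scaled reads in the controls and at 14.3, 20.2 and 14.4 with TM, 5.76-fold lower. Cbl, a ubiquitin ligase of receptor tyrosine kinases, went from 61.7 and 74.1 to 10.6, 19.6 and 12.8. Ago2, the slicer of RNA interference, went from 202 and 214 to 41.9, 59.5 and 39.3. The chromatin remodellers Ino80d and Srcap, the transcription factor Tead1 and the imprinted gene Peg3 belong here too. Mgat5, a Golgi N-glycan branching enzyme, went from 24.6 and 21.9 to 3.12, 4.69 and 4.18 (adjusted p 0.00025). Aak1, Sned1, Shroom4, Ptch1, Clcn5 and Sertad2 were also among the 20. For Tnxb, Epas1 and Pdzd2 the controls themselves differed: Tnxb was at 25.1 and 8.09, Epas1 at 27.7 and 8.82 and Pdzd2 at 12.9 and 6.47, in each case higher in control 2, the library with the high markers of other cell types.

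**Figure D2:**
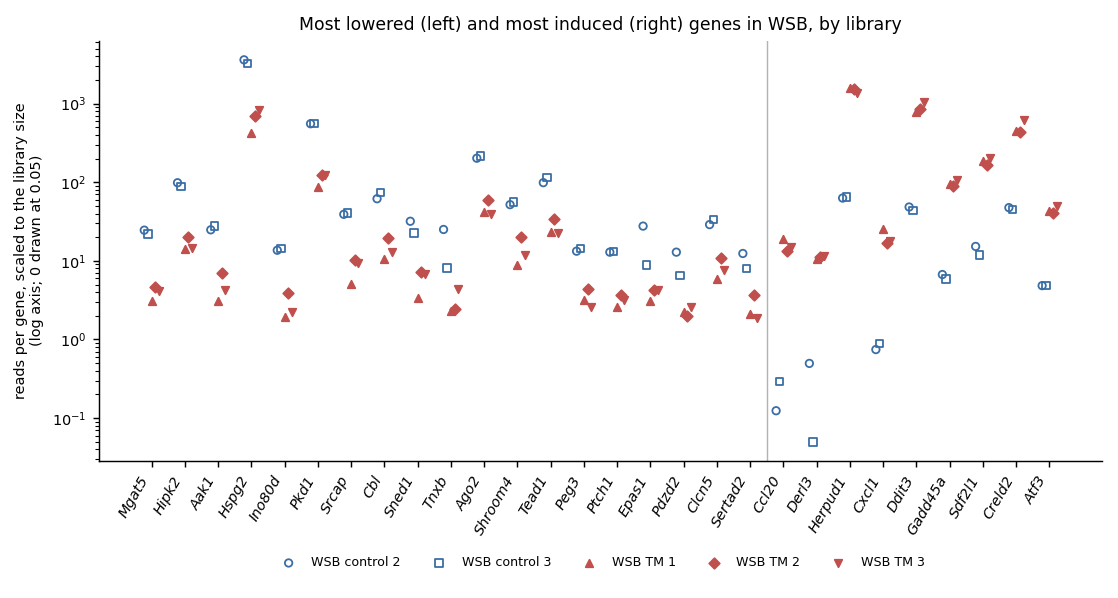
Scaled reads per gene (log axis, 0 drawn at 0.05) in each WSB library for the most lowered genes, left of the line, and the most induced, right of it. Open blue symbols are the 2 controls and filled red symbols the 3 TM libraries. Only genes whose groups do not overlap were eligible, and the controls of Tnxb and Epas1 lie apart from each other.

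The lowered genes were long. The longest protein-coding transcript of a gene had a median length of 7109 bases among lowered genes, 3162 among genes not called and 2339 among induced genes. The coding length had medians of 3504, 1368 and 1089 bases, and the gene span on the genome 78.0, 24.5 and 14.7 kb. GC content differed less, with medians of 52.2%, 50.2% and 47.6%. When the genes were divided into deciles by transcript length, 0 of 1251 genes in the shortest decile and 280 of 1252 in the longest were lowered (22.4%), while 47 and 6 were induced. The median log2 change went from 0.23 in the shortest decile to -0.58 in the longest. Across the 12517 genes with a length, Spearman's rho of the change with length was -0.41.

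In the longest decile the controls lay above and the TM libraries below the mean of the gene. There the median deviation from a gene's mean was 0.31 and 0.39 (log2) in the controls and -0.28, -0.12 and -0.28 in the TM libraries. To show how far the calls move with it, the smooth trend of each library's deviations with length and GC content was subtracted and the test repeated. After this correction 276 genes were lowered (2.21%) and 624 induced (4.99%), with 185 of the lowered and 266 of the induced genes shared with the uncorrected calls. With a correction for length alone 109 were lowered, 106 of them shared, and 267 were induced, 192 shared. Lowered genes made up 59.6% of the calls without the correction and 30.7% with the correction for length and GC. The part of transcript length in the result was not tested.

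**Figure D3:**
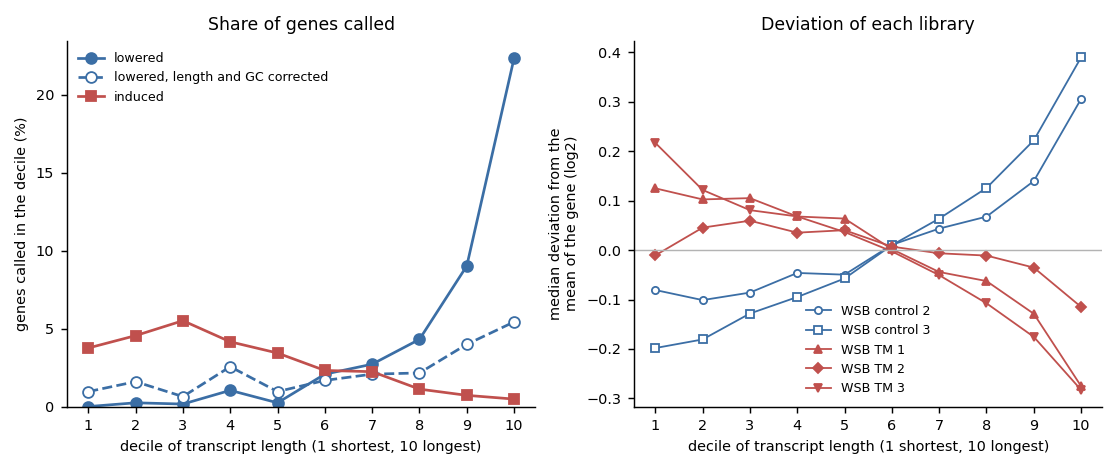
Left: share of genes lowered (filled circles), lowered after correction for length and GC (open circles) and induced (squares) in deciles of transcript length. Right: median log2 deviation of each WSB library from the mean of the gene in the same deciles; the share lowered reaches 22.4% in the longest decile, where the controls lie at 0.31 and 0.39 and the TM libraries at -0.12 or lower.

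Among lowered genes, 56 were also called in edgeR, after the length and GC correction and without each of the 5 libraries in turn, a set of conditions chosen after the values were seen. They still had long transcripts, 3179 to 19341 bases with a median of 8204. Mgat5, Hipk2, Hspg2, Pkd1, Ago2 and Ptch1 were among them, as were Fgf2, a fibroblast growth factor, and Inhba, the activin A subunit. Inhba was at 1099 and 1071 scaled reads in the controls and at 247, 447 and 305 with TM, a log2 change of -1.75 before and -1.66 after the correction. Of the induced genes, 82 held under the same conditions.

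Only 21 lowered genes had a transcript shorter than the median of 3223 bases, and 19 of them were still lowered after the correction. Retreg3, an ER-phagy receptor, was at 38.3 and 37.8 scaled reads in the controls and at 9.65, 12.5 and 12.3 with TM, and its log2 change was -1.73 before and -1.64 after the correction. Pomgnt2, an ER glycosyltransferase of the dystroglycan glycan, went from 13.5 and 11.0 to 4.32, 4.32 and 4.72. Chst12, a Golgi chondroitin sulfotransferase, went from 63.9 and 65.3 to 28.7, 42.3 and 32.6, and Bgn, the matrix proteoglycan biglycan, from 4158 and 4392 to 2550, 2950 and 2297. The other short lowered genes included Chst1, Pxylp1, Ergic1, C1qtnf1, C1qtnf6, P3h4, Npcd, Faxc, Ntng2, Atp10d, Jup and Nr1d1, a repressor of the circadian clock. These genes were chosen for their length after their values were seen.

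Of the gene lists, extracellular matrix had the highest share of lowered members without correction and with all 5 libraries, but not after the correction or when control 2 or control 3 was left out. All 39 matrix genes tested were below control, 13 were lowered (33.3%) and 0 induced, and the median change was -0.62 against 0.01 over all genes. Of all 12668 genes tested, 6241 were below control, 4.2% were lowered and 2.85% were induced. Nid1, the basement membrane linker nidogen, went from 1187 and 1228 scaled reads to 439, 508 and 349. Col6a3 went from 1276 and 1358 to 409.5, 499 and 654, and the fibrillin Fbn2 from 18.9 and 21.8 to 4.93, 6.17 and 8.99. The members that passed were mostly very long, such as Hspg2, Fn1, Fbn1, Fbn2, Col12a1 and Lamc1. After the length and GC correction 4 matrix genes were lowered (Hspg2, Nid1, Loxl2 and Bgn) and 1 was induced, and the median change was -0.25. The major fibrillar collagens did not pass: Col1a1 had a log2 change of -0.41 (adjusted p 0.23). Without control 2, 6 matrix genes were lowered, and without control 3, 7.

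Receptors and adhesion molecules were mostly below control before the correction. The median log2 change was -0.55 in axon guidance genes, -0.53 in integrins and cadherins and -0.44 in receptor tyrosine kinases, and after the correction it was -0.23, -0.15 and 0.02. Of all 12668 genes tested, 6241 were below control and 4.2% were lowered. Of 36 axon guidance ligands and receptors, 33 were below control and 9 were lowered (25%), among them the semaphorin receptors Plxna1, Plxna4 and Plxnd1. Plxna1 was at 676 and 643 scaled reads in the controls and at 198, 242 and 233 with TM, and was the member still lowered after correction. Of 28 integrins and cadherins 25 were below control and 6 were lowered (21.4%): the giant cadherins Fat1 and Fat4 fell by 1.41 and 1.29 on the log2 scale, and the integrins Itga3, Itgb3, Itga6 and Itga11 by less. After correction 1 of these remained, Itga6. Of 31 receptor tyrosine kinases, 3 (9.68%) were lowered (Ddr2, Flt1 and Igf1r) and 0 after correction. The change of Igf1r was -0.76 (adjusted p 0.0099) and turned to 0.09 with the correction. Without control 2 the counts lowered were 1 axon guidance gene, 2 integrins and cadherins and 0 receptor tyrosine kinases, and without control 3 they were 3, 2 and 0.

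Signalling pathways differed in how far their calls held. The shares over all genes tested were 4.2% lowered and 2.85% induced. In TGF-beta and BMP signalling 4 of 44 genes were lowered (9.09%): Inhba, the type II receptor Bmpr2 and the type I receptors Tgfbr1 and Acvr1b. All 4 were still lowered after the length and GC correction. Bmpr2 and Tgfbr1 did not pass with the correction for length alone. The BMP target Id3 rose, from 147 and 116 scaled reads to 228, 237 and 264, the 1 member induced (2.27%, near the share of all genes). In the Hippo pathway the coactivator Yap1, its partner Tead1, the kinase Lats2 and the scaffold Amotl1 were lowered, 4 of 25 (16%). Again all 4 held after the length and GC correction, while Yap1 and Lats2 did not pass with the correction for length alone. Tead1 went from 98.8 and 116 to 23.2, 34.2 and 22.7, and Yap1 from 107 and 110 to 44.9, 66.2 and 56.97. The YAP targets Edn1 and Ankrd1 rose, by 1.17 and 0.75 on the log2 scale, but Ankrd1 did not pass after the correction (0.48, adjusted p 0.021). In each of these pathways 2 genes were lowered and 0 induced without control 2, and likewise without control 3, so the calls of Id3, Edn1 and Ankrd1 were lost there.

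In the Hedgehog pathway all 10 genes tested were below control and 3 were lowered (30%): Ptch1, the Hedgehog receptor, the coreceptor Cdon and the transducer Smo. Of all 12668 genes tested, 6241 were below control, 4.2% were lowered and 2.85% were induced. Ptch1 went from 12.9 and 13.1 scaled reads to 2.61, 3.70 and 3.20, and it and Cdon were still lowered after correction. In the Wnt pathway 4 of 39 (10.3%) were lowered (Dvl3, Lrp5, Lrp6 and Apc), 2 of which, Dvl3 and Lrp5, held after correction. In the Notch pathway the receptors Notch1, Notch2 and Notch3 were lowered, 3 of 18 (16.7%), while Rbpj, their DNA-binding partner, and the effector Hey2 rose (11.1%). Hey2 went from 7.20 and 6.76 to 54.0, 46.4 and 28.0, and Notch3 from 26.9 and 19.1 to 5.13, 5.43 and 8.63. Notch3 held after correction, and the change of Notch2 went from -0.97 to 0.01. In these 3 pathways the correction was that for length and GC. With the correction for length alone Cdon, Lrp5 and Notch3 did not pass. Without control 2 the genes lowered were 2 in the Hedgehog, 1 in the Wnt and 0 in the Notch pathway, and without control 3 they were 3, 2 and 2.

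Of 29 genes of cholesterol and fatty acid synthesis and uptake, 7 were lowered (24.1%, against 4.2% of all genes tested) and 0 induced. After correction 7 were lowered, 3 of them shared, among them Elovl6. Elovl6, a fatty acid elongase, went from 31.4 and 33.2 scaled reads to 14.3, 15.8 and 10.8. It passed with the length and GC correction but not with the correction for length alone. Fasn, the fatty acid synthase, went from 1347 and 904 to 314, 403.5 and 524, so the controls differed from each other, and it did not pass after correction. The fatty acid genes Acaca, Acly and Scd2 also fell. Without control 2, 1 of the 29 was lowered, and without control 3, 4.

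Long cytoskeletal genes were among those that fell. Among 29 actin and SRF target genes 4 were lowered (13.8%), among them the filamin Flna, the focal adhesion protein Vcl and the SRF coactivator Mrtfb. Of the 29, 17 were below control, as were 6241 of all 12668 genes tested. Mrtfb went from 36.6 and 43.5 scaled reads to 8.64, 12.2 and 10.6. After correction 2 were lowered, Vcl and Mrtfb, and 2 were also lowered without control 2 and 2 without control 3. With the correction for length alone Vcl did not pass. In Ire1-dependent decay targets 1 of 8 was lowered, where 4.2% of all genes were: Scara3, a scavenger receptor. It went from 25.1 and 27.9 to 5.93, 7.16 and 9.17, 3.59-fold lower (adjusted p 0.00081), and had a transcript of 3597 bases, near the median of all genes. It was still lowered after the correction, by 1.58 on the log2 scale. Of the 8 targets 7 were below control, with a median log2 change of -0.44 before and -0.27 after the length and GC correction. At an unadjusted p below 0.05 in limma 5 were lower. DESeq2 called 3 lowered and edgeR 1.

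Housekeeping, cell cycle and interferon lists are given beside the shares over all genes tested, 4.2% lowered and 2.85% induced. In the shorter lists 0 or 1 call is near those shares. Of 75 cytosolic ribosomal proteins, short transcripts with a median of 937 bases, 0 passed in limma, while 23 were higher at an unadjusted p below 0.05 and 8 were induced in DESeq2 and 0 in edgeR. Their median log2 change was 0.22 before and 0.04 after the correction. Of 76 respiratory chain subunits 0 passed in limma and edgeR and 1 in DESeq2, with 10 higher and 1 lower at an unadjusted p below 0.05. Among 27 DNA replication genes 1 rose (3.7%), the licensing factor Cdc6. Of 28 mitosis genes 0 passed with any of these tools, with 5 higher and 1 lower unadjusted, and of 18 interferon-stimulated genes 0 passed, with 1 higher and 3 lower.

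The induced genes were led by the UPR. Of 17 ER chaperones and folding enzymes 15 rose and 0 fell, of 12 genes of ER-associated degradation 8 rose, and of 24 ATF4-CHOP targets 16 rose. These shares were 88.2%, 66.7% and 66.7%, against 2.85% of all genes tested. Sdf2l1, a BiP cofactor, went from 15.3 and 11.9 scaled reads to 185, 166 and 201.1, and Creld2 from 47.5 and 44.998 to 445, 438 and 627. Atf3 went from 4.84 and 4.85 to 42.8, 41.0 and 49.1, and Gadd45a, a growth arrest gene, from 6.70 and 5.88 to 95.7, 90.2 and 107. Derl3, a retrotranslocation factor, rested on 4 reads in control 2 and 0 in control 3, against 106, 92 and 130 with TM. After the length and GC correction the counts were 15, 8 and 18. Without control 2 they were 13, 4 and 10, and without control 3 they were 14, 6 and 11.

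In the NF-kB list 3 chemokines rested on few reads in the controls. Cxcl1 was covered by 6 reads in each control and by 256, 138 and 199 with TM, and Ccl20 by 1 and 2 reads against 186, 108 and 170. Cxcl2 had 2 and 0 reads in the controls and 71, 38 and 59 with TM. No fold is given for Ccl20, Cxcl2 and Derl3, whose controls held so few reads. In all, 10 of 19 genes of that list rose (52.6%, against 2.85% of all genes tested), among them the inhibitors Nfkbia and Tnfaip3 and the cytokine Lif. Lif went from 31.1 and 29.9 scaled reads to 180, 177 and 175.5.

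Of 31 immediate early genes and feedback inhibitors 9 rose (29.0%, against 2.85% of all genes tested) and 1, Spred2, fell (3.23%, near the 4.2% of all genes). Myc went from 171 and 169 scaled reads to 447, 486 and 391. Nfil3, a clock and stress regulator, went from 25.4 and 30.0 to 176, 162 and 168. Of 15 clock genes Nfil3, Bhlhe40 and Arntl rose (20%) and Nr1d1 fell (6.67%, near the lowered share of all genes), while 10 were below control. Without control 2, 1 clock gene rose and 0 fell, and without control 3, 2 rose and 2 fell. When control 2 or control 3 was left out, 3 of the immediate early genes rose and 0 fell. Of 311 Zfp zinc finger genes 9 rose and 9 fell, 2.89% in each direction and so near the induced share of all genes and below the lowered share. After the correction 28 rose and 6 fell, without control 2 the counts were 4 and 1, and without control 3 they were 8 and 2. Of 25 genes of N-glycan assembly and transfer, the pathway that TM blocks, 1 rose, the oligosaccharyltransferase subunit Rpn1, and 0 fell. That is 4%, near the 2.85% induced over all genes tested. At an unadjusted p below 0.05 in limma, 5 of the 25 were higher and 0 lower.

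**Figure D4:**
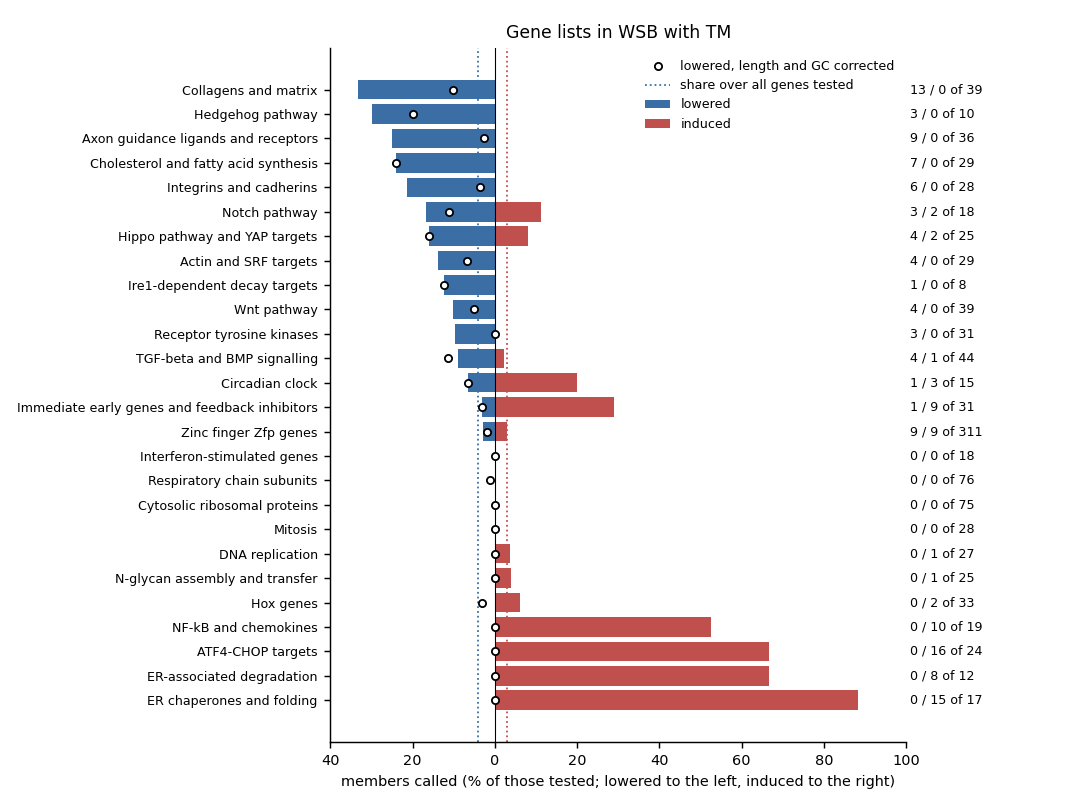
Share of members called lowered (blue, to the left) or induced (red, to the right) in each gene list, with the counts lowered / induced of tested at the right. Dotted lines mark the shares over all genes tested, 4.2% and 2.85%, and open circles the share lowered after correction for transcript length and GC; 13 of 39 matrix genes were lowered and 15 of 17 ER chaperones induced.

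The same genes were then followed in the other strains, whose libraries the WSB calls did not use. Of the 532 genes lowered in WSB, 531 were below control in 129, 528 in B6, 524 in A/J and 510 in PWK, against 435 in NZO, 381 in CAST and 358 in NOD. Over all genes, 51.3% to 53.8% were below control in these strains. The median log2 change of the WSB-lowered genes was -1.15 in WSB, -0.76 in 129, -0.61 in A/J, -0.51 in B6, -0.45 in PWK, -0.30 in NZO, -0.18 in CAST and -0.12 in NOD. All 7 strains were below control for 329 of the 532. In the same order of strains, across genes, rho of the change with length was -0.24 in 129, -0.12 in A/J, -0.07 in B6, -0.01 in PWK, 0.20 in NZO, 0.23 in CAST and 0.26 in NOD. The order of the strains was the same in both measures; the part of length in it was not tested.

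Fewer of these genes passed the test elsewhere, but the spread differed between genotypes. The median residual SD across genes (log2) was 0.10 in B6, 0.15 in CAST and PWK, 0.17 in NOD and 0.22 in WSB. It was 0.24 in 129 and NZO, 0.31 in xWSB and 0.35 in A/J. Counts called depend on this spread as well as on the size of the change, so they do not rank the strains by response. In B6, where 3.22% of all genes were lowered, 198 of the WSB-lowered genes were lowered too, and in PWK, where 4.3% were, 168. In CAST 27 (0.478% of all genes lowered), in NOD 11 (0.165%), and in 129, A/J and NZO 1 each (0.00787%, 0.00786% and 0.0078%) passed. The 25 genes that were also lowered in at least 3 other strains included Scara3 in 6 and Pbxip1 in 5, and, in 4 each, Retreg3, Angptl2, Cemip2, Oaf, P3h4 and the glycan-modifying enzymes B4galt5, Chst1, Chst12 and Pomgnt2. These 25 were below control in all 7 other strains, and 16 of them were lowered in WSB after the correction. Of the 361 genes induced in WSB, 254 were induced in B6 (5.04% of all genes) and 272 of 360 in PWK (6.36%). Fewer passed in CAST (140 of 360, 2.54% of all genes) and NOD (116, 1.45%). In 129, A/J and NZO 35 to 38 passed, where 0.315%, 0.346% and 0.32% of all genes were induced.

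**Figure D5:**
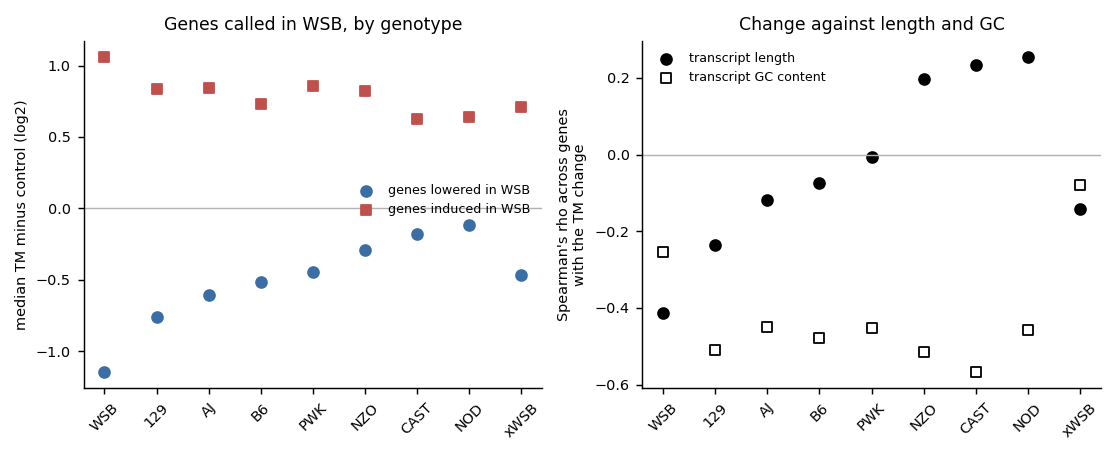
Left: median TM minus control change (log2) of the genes lowered (circles) and induced (squares) in WSB, in each founder strain and in the F1 xWSB. Right: Spearman's rho across genes of the TM change with transcript length (filled circles) and GC content (open squares); the lowered genes' median runs from -1.15 in WSB to -0.12 in NOD, and rho with length from -0.41 to 0.26.

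The difference itself between WSB and the mean of the other 7 strains was tested in 1 limma fit over the 40 founder libraries. At an adjusted p below 0.01 it was significant for 1 gene, 0.00758% of the 13197 tested, and at 0.05 for 19, with 13 lower and 6 higher in WSB. At an unadjusted p below 0.05, 1856 genes differed. The 1 gene was Sgcd, delta-sarcoglycan of the dystrophin complex. It was at 10.5 and 10.0 scaled reads in the WSB controls and at 5.03, 4.56 and 4.98 with TM, while in the other strains its change lay between -0.19 and 0.13 (log2). The difference was -1.10 (SE 0.17, adjusted p 0.0059). Its transcript of 2450 bases is below the median. With the length and GC correction the difference was -1.22, and 0 genes passed at 0.01 in limma, against 1759 at an unadjusted p below 0.05. Without control 3, 230 genes passed, 219 of them lower in WSB, without control 2 4 passed, all higher, and without any of the TM libraries 0 did. With this exception, the 532 lowered genes are not shown at 0.01 to respond differently in WSB.

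Other genes with a mean of at least 5 scaled reads that differed at 0.05 were Gpt2, Ctnnd2, Mgll and Lama4, lower in WSB, and Rnd1, Socs3 and Pdia4, higher. Each had an adjusted p of 0.048 in limma, close to the threshold. At 0.05, 0 genes were higher and 1 lower with a mean value of at least 2 or without TM 1. With the replicate block or without TM 2, 0 genes passed, and without TM 3, 2 were higher and 13 lower. The length and GC correction gave 16 higher and 25 lower, but Ctnnd2 (adjusted p 0.17) and Pdia4 (0.066) did not pass. Gpt2, an alanine aminotransferase, had log2 changes of 0.87 to 1.25 in the other strains and 0.38 in WSB (adjusted p for WSB alone 0.11). Pdia4, an ER disulfide isomerase, went from 179 and 202 scaled reads to 750, 736 and 811, a log2 change of 2.01 against a mean of 1.53 elsewhere. Socs3, the feedback inhibitor of cytokine signalling, was at 16.9 and 13.5 in the controls and at 14.6, 16.8 and 16.02 with TM, while it lay below control in all 7 other strains. Mgll, a monoacylglycerol lipase, was at 55.1 in control 2 and 33.7 in control 3, and was thus higher in the library with the high markers of other cell types, whose part was not tested. Lpin1, Chchd5 and Foxs1 were among the next in their direction and did not reach 0.05.

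Cells of the F1 xWSB carry 1 WSB genome beside a B6 genome, and the WSB calls did not use their libraries. Of the 531 WSB-lowered genes tested there, 516 were below control, with a median log2 change of -0.47, and of the 361 WSB-induced genes 359 were above control, with a median of 0.71. Over all 12413 genes tested in xWSB the median log2 change was -0.016. Only 2 of the lowered genes passed, Scara3 and Mgat3, where 0.0161% of all genes tested in xWSB were lowered, and 22 of the induced, where 0.185% were. Scara3 was at 18.0, 21.5 and 17.8 scaled reads in the xWSB controls and at 4.09, 4.81 and 4.88 with TM, a change of -2.03 (SE 0.20, adjusted p 0.0035). Mgat3, the bisecting N-glycan transferase, went from 13.7, 14.7 and 12.7 to 3.96, 4.64 and 4.13. In both genes the groups were far apart and the libraries of a group close together.

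For some of the other lowered genes the xWSB libraries varied as much within a treatment as between treatments. Mgat5 was at 3.53, 16.03 and 16.2 in xWSB control 1, 2 and 3 and at 1.62, 7.81 and 9.23 in TM 1, 2 and 3 (log2 change -0.97, adjusted p 0.65). Inhba was at 229, 1004 and 966 in the controls and at 177, 991 and 1555 with TM. In both genes replicate 1 was the lowest library of each treatment. The median deviation of the WSB-lowered genes from their mean was -0.25 (log2) in xWSB control 1, 0.50 in control 2 and 0.44 in control 3, and -0.69, -0.09 and 0.12 in TM 1, 2 and 3, so control 1 lay below TM 2 and TM 3. The longest decile of transcripts followed the same pattern, from -0.41 in control 1 and -0.38 in TM 1 to 0.39 in control 3. Without xWSB TM 1, 384 of the 531 genes were below control, with a median of -0.21. In WSB, 56 genes were also lowered in edgeR, after the length and GC correction and without each library in turn. Of these 56, 55 were below control in xWSB, with a median of -0.73.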

How the data were processed

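RNA-seq of 5 WSB libraries was analysed, with 35 libraries of the other founder strains and 6 of xWSB for comparison. Per the study's methods, mRNA libraries were read as single-end 100-base reads, aligned with TopHat 1.4.1 to strain-specific genomes, and normalized by TMM in edgeR. The submitters' notes also name GRCm38, FastQC and Trimmomatic. The methods describe the last 2 only for the allele calls in the F1 crosses. Libraries that did not cluster with their condition were removed and the rest normalized again. The gene annotation behind the expression values is not given in the sources used here. The deposited tables call their values FPKM, which the tests assumed. The authors' values proved to be a signal per gene in whole multiples of a fixed step in each library, with no division by length. The reads recovered from these steps were rounded to whole numbers. In TM 1 the step (0.100521) is close to 0.1, so edgeR was also run without that library.

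Values were read with Python 3.11.15 (pandas 2.3.3, numpy 2.4.6, matplotlib 3.10.9) and tested in R 4.3.3 with limma 3.58.1 on log2(value + 0.1), eBayes with trend, over genes with at least 0.5 in at least 2 libraries. Fold changes on this scale understate those of low genes. Calls needed a Benjamini-Hochberg adjusted p below 0.01 and 1.5 fold. The loess span of the length and GC correction was 0.3, and lengths came from GENCODE M21. The fits were tested on simulated data. Alternatives tried were no filter, a pseudocount of 1, a mean value of 2 or more, median-of-ratios scaling, no trend, the replicate block, 1 fit over 40 libraries, an adjusted p below 0.05 and each library left out. Added after the data were seen were the corrections, edgeR 4.0.16 and DESeq2 1.42.0 on recovered reads, the set of conditions that 56 lowered genes passed, and list counts without each control.

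Genes were named by a rule: the 20 most lowered and 10 most induced calls with a mean of 5 or more and separated groups, up to 4 called members of each list in each direction, the 6 with the smallest p in each direction against the other strains, and Hspa5, Ddit3, Herpud1, Xbp1 and Atf4. Members and lists were chosen with earlier results of these data known. Some genes that the rule names, and 1 list, are not reported here. Genes named outside the rule were chosen after their values were seen. Depth of 7091923 to 11565681 reads limits the precision of values near the filter. The tables of the 4 other F1 crosses without a WSB parent were not used here.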

Additional observations from a re-analysis of the deposited data

Results flagged for a closer look

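The TM effect on Sgcd differed between WSB and the mean of the other 7 founder strains by -1.10 (log2, SE 0.17, adjusted p 0.0059 in limma over 40 libraries), the one gene for which this test of the difference itself passed 0.01. Sgcd was lower in 3 of 3 WSB TM libraries than in both controls, as were 3202 of the 12668 genes tested in WSB. With the length and GC correction the adjusted p of its difference was 0.028 in limma. At 0.01, 0 genes passed with the replicate block or when any of the WSB TM libraries was left out. Its values were low, 4.56 to 10.5 scaled reads, and in xWSB its change was -0.12 (adjusted p 0.91).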

How the results depend on the processing

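The counts of lowered and induced genes changed in size with many settings, and induced genes outnumbered lowered ones in the fit over 40 libraries, without the trend and with the corrections. The counts were 532 and 361, and 1142 and 918 at an adjusted p below 0.05, 0 and 21 without the trend in the prior variance, 598 and 688 in 1 fit over 40 libraries, and 105 to 694 and 103 to 560 when a library was left out. Chosen after seeing the data were the correction for length and GC (276 and 624), the correction for length alone (109 and 267), edgeR without TM 1 (254 and 149) and DESeq2 (844 and 574). A pseudocount of 1, no filter, a mean of at least 2, median-of-ratios scaling and edgeR on 5 libraries gave up to 586 lowered and 309 to 376 induced genes, within 1.5 times. The causes of these moves were not tested.

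With the replicate number as a block, 209 genes were lowered and 149 induced, and with the block and the length and GC correction 143 and 305. WSB has 2 same-numbered pairs, with correlations of deviations of -0.093 and -0.298. With 2 controls the deviations of each mirror those of the other, so these values cannot show whether same-numbered samples were paired. With the block, 0 genes differed from the other strains, and in xWSB 0 WSB-lowered and 10 WSB-induced genes passed.

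The difference from the other strains gave 1 gene, 4 with a pseudocount of 1, 0 with the correction and 0 to 230 when a library was left out. In xWSB the WSB-lowered genes called were 2, with 1 without a filter, 12 with the correction and 0 to 1 when a library was left out. The WSB-induced genes called were 22, with 11 without the trend, 81 with the correction and 4 to 22 when a library was left out.

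Among the named genes, the change of Igf1r turned to 0.088 with the correction for length and GC and to 0.10 with the block as well, and that of Notch2 to 0.0051 with the correction. Socs3, not called, ranged from -0.10 without control 3 to 0.22 without control 2 and turned to -0.048 with the correction for length alone. The other genes named by the rule kept their direction in every setting run. Where few reads were recovered, as for Derl3 and Cxcl2 in the controls, depth limits the size of the change.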
